A study of Mus musculus with 8 samples.

Results

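The genes described are a set of 10 growth genes of the developing liver, of 24421 symbols in the count table. They are 8 imprinted genes, namely Igf2, H19, Igf2r, Grb10, Cdkn1c, Plagl1, Peg3 and Mest, together with Afp and Gpc3. They were picked by symbol, with their values in these livers already known. Their levels in CAPZ_KO and WT livers are therefore given as a description, without a test.

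The livers were from adult C57BL/6N mice of 8 to 10 weeks, perfused with PBS, and their poly(A) RNA was sequenced as stranded libraries. The CAPZ_KO group (4 libraries) carried Albumin-CreERT2, a tamoxifen-inducible Cre under the albumin promoter, which is active in hepatocytes, with floxed Capzb alleles (Capzb-fl/fl), and received tamoxifen. Capzb encodes the beta subunit of the protein that caps the fast-growing ends of actin filaments. The WT group (4 libraries) held floxed animals given tamoxifen without Cre, or animals with Cre and floxed alleles that were not injected. Which of these kinds a given WT library came from is not stated, so exposure to tamoxifen and deletion of Capzb cannot be told apart. Tamoxifen was given in 5 daily injections that began at 4 to 6 weeks of age. Floxed Capzb alleles were shared by both groups. The labels do not state that each library is a separate animal, so p-values reflect only the spread among the samples, which may be technical.

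Imprinted genes are transcribed from a single parental allele. Many of them control growth before birth and fall silent in most organs of the mouse within weeks after it. Igf2 and H19 are neighbours that share enhancers. Igf2 is transcribed from the paternal and H19 from the maternal chromosome. Afp and Gpc3 are not imprinted, but are abundant in fetal liver, low in adult liver and often switched on again in hepatocellular carcinoma.

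Total counts ranged from 13122355 to 16984971 in CAPZ_KO and from 12060350 to 18916315 in WT libraries. Levels are CPM, read counts scaled to a common library size after TMM normalization. Capzb stood at 72.5 ± 6.8 CPM in CAPZ_KO and 120.2 ± 13.4 CPM in WT livers (SD, n = 4 each), and fell (edgeR adjusted p = 0.00134). Its log2 fold change of −0.73 was −0.10 when scaled by library sizes alone (adjusted p = 0.442). All 8 hepatocyte markers checked had reads, with summed levels of 37792 to 58626 CPM in CAPZ_KO and 167287 to 212776 CPM in WT libraries. Most of each sum was Alb, at 26297 to 43080 CPM in CAPZ_KO and 122841 to 175283 CPM in WT libraries. Ass1 had too few reads to be tested. Among these markers 6 of 7 tested genes fell, beside 19% of all tested genes. In whole liver RNA, fewer cells of a type and less RNA per cell cannot be told apart. Xist and Y-linked genes marked CAPZ_KO 4 and WT 4 as female and the other libraries as male.

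A short sequence ties H19 to regulation of other messages, because an exon of H19 holds the hairpin of miR-675. The mature products from RefSeq (GRCm38.p6, minus strand) are given with the seed, bases 2 to 8, in capitals. They lie at chr7:142577112-142577133 for the 5p and chr7:142577078-142577099 for the 3p arm.
mmu-miR-675-5p: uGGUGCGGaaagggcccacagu
mmu-miR-675-3p: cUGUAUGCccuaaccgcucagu
Each seed occurs in 1 mature entry of that table. Poly(A) libraries count the long H19 transcript and not these products, which were not analysed here.

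All 10 genes passed the filter on low counts, H19 and Igf2 through their CAPZ_KO libraries alone. In 6 of the 10, namely Igf2, H19, Igf2r, Grb10, Plagl1 and Afp, every CAPZ_KO library lay above every WT library. Of all tested genes 22.1% did so, a share that is printed for scale, since the set was picked with this contrast known. Groups overlapped for Cdkn1c, Peg3, Mest and Gpc3.

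**Figure D1:**
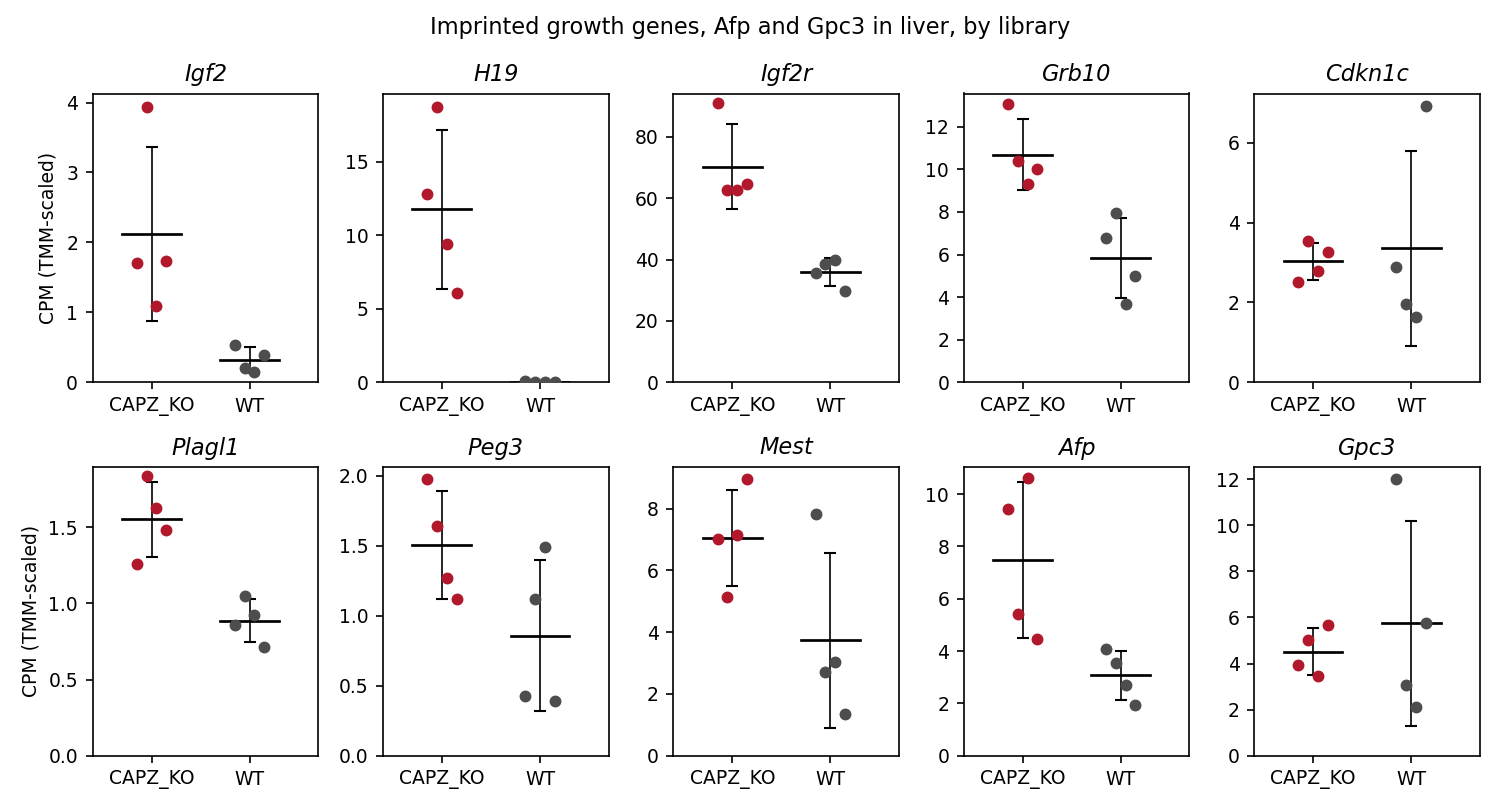
Levels of the 10 genes in CPM after TMM scaling, with a point for each library, CAPZ_KO to the left and WT to the right, and a line and bar for the mean and SD of 4 libraries. H19 lies between 6.08 and 18.7 CPM in CAPZ_KO and at 0 to 0.107 CPM in WT libraries, while the groups overlap for Cdkn1c, Peg3, Mest and Gpc3.

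The ligand Igf2, the insulin-like growth factor of fetal life, stood at 1.71, 3.94, 1.09 and 1.74 CPM in CAPZ_KO libraries 1 to 4 and at 0.536, 0.197, 0.142 and 0.389 CPM in WT libraries 1 to 4. These values rest on 169 reads over the CAPZ_KO and 16 reads over the WT libraries. CAPZ_KO 2 was the highest library, and all 4 were above the highest WT library. The log2 fold change was 2.79 ± 0.534 (SE), and 2.27 without CAPZ_KO 2. Igf2 lies on chromosome 7 from 142650766 to 142666816 (minus strand, GRCm38). Its exons share 3596 bases with Gm49394, a same-strand gene not in the count table, and 98 bases with Igf2os on the opposite one, and the strand setting of the counting is not given in the sources used here.

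H19, the long noncoding RNA, was near zero in WT liver. It had 283, 375, 156 and 119 reads in CAPZ_KO libraries 1 to 4 and 1, 0, 0 and 0 reads in WT libraries 1 to 4. On the CPM scale these are 12.8, 18.7, 9.43 and 6.08 in CAPZ_KO, against at most 0.107 in WT libraries. Pooled over the libraries, 933 reads in CAPZ_KO against 1 read in WT gave a ratio of 643 once divided by the TMM-scaled library sizes, with a 95% interval for counting error alone from 115 to 25438. A fitted log2 fold change depends on the prior count here, at 8.81 with edgeR's default and 6.40 with a prior count of 2. It also rests on the single WT read, and without WT 1 it was 10.69. H19 lies 72.6 kb from Igf2 on chromosome 7, from 142575529 to 142578143 on the minus strand.

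Within the CAPZ_KO libraries the H19 and Igf2 levels were not in a fixed ratio. Per read of Igf2 there were 7.45, 4.75, 8.67 and 3.5 reads of H19 in CAPZ_KO 1 to 4. In WT 1 there was 0.2 of a read, and in the other WT libraries H19 had none. Scaled by exon length, the ratio of H19 to Igf2 was 17.3, 11, 20.2 and 8.14 in CAPZ_KO 1 to 4. CAPZ_KO 2 held the highest level of both genes, while CAPZ_KO 4 was lowest for H19 and CAPZ_KO 3 for Igf2.

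The receptor Igf2r, which carries IGF2 to lysosomes for breakdown and is expressed from the maternal allele in mice, had the highest mean level per exon length of the set in both groups. It stood at 91.1, 62.6, 62.8 and 64.5 CPM in CAPZ_KO libraries 1 to 4, against 35.5, 38.7, 40 and 29.9 CPM in WT libraries 1 to 4. CAPZ_KO 1 stood above the other 3, which were close together and still above all WT libraries. The log2 fold change was 0.96 ± 0.159 (SE), and 0.78 without CAPZ_KO 1. Igf2r lies on chromosome 17 from 12682406 to 12769664, on the minus strand. Per exon length, the ratio of Igf2 to Igf2r was 0.0282 to 0.102 in CAPZ_KO and 0.00578 to 0.0246 in WT libraries.

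Airn, a paternally expressed RNA that is transcribed through Igf2r on the opposite strand and silences its paternal copy, rose as well. It had 37, 22, 31 and 23 reads in CAPZ_KO 1 to 4, against 2, 2, 0 and 4 reads in WT 1 to 4. By edgeR it was higher by 3.22 ± 0.537 on the log2 scale (SE, adjusted p = 0.0011), or by 2.54 with a prior count of 2. In GENCODE vM21 the exons of the pair do not overlap, but Airn starts within Igf2r, so reads from Igf2r introns could count to it if strand was not used.

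Grb10, an adaptor that binds the insulin and IGF1 receptors and restrains their signal, was at 13.1, 10.4, 9.31 and 10 CPM in CAPZ_KO libraries 1 to 4 and at 6.76, 7.96, 3.69 and 4.99 CPM in WT libraries 1 to 4. The closest pair was CAPZ_KO 3 and WT 2, and the groups did not overlap. CAPZ_KO exceeded WT by 0.88 ± 0.24 on the log2 scale (SE). Grb10 lies on chromosome 11 from 11930508 to 12038683, on the minus strand.

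Cdkn1c, the cell cycle inhibitor p57, did not separate the groups. It stood at 2.52, 3.54, 2.78 and 3.27 CPM in CAPZ_KO libraries 1 to 4 and at 2.9, 1.97, 1.63 and 6.94 CPM in WT libraries 1 to 4. The WT mean was carried by WT 4, a female library with 107 reads, against 23 to 30 reads in the other WT libraries. The log2 fold change of −0.16 ± 0.42 (SE) became 0.49 without WT 4, 0.46 without both female libraries and 0.44 with library sizes alone. Cdkn1c lies on chromosome 7 from 143458339 to 143461050, on the minus strand, and shares 625 exon bases with an antisense gene.

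The zinc finger gene Plagl1, a transcription factor that regulates other imprinted genes, had 1.26, 1.84, 1.63 and 1.48 CPM in CAPZ_KO libraries 1 to 4 and 0.858, 1.05, 0.923 and 0.713 CPM in WT libraries 1 to 4. Its range was narrow in both groups, and the groups did not overlap. CAPZ_KO exceeded WT by 0.80 ± 0.271 on the log2 scale (SE). These levels correspond to 27 to 37 reads per library in CAPZ_KO and 8 to 16 in WT. Plagl1 lies on chromosome 10 from 13060504 to 13131694, on the plus strand.

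Peg3, another paternally expressed zinc finger gene, had 1.98, 1.64, 1.27 and 1.12 CPM in CAPZ_KO libraries 1 to 4 and 0.429, 1.12, 1.49 and 0.389 CPM in WT libraries 1 to 4. WT 3 lay above CAPZ_KO 3 and 4, while WT 2 lay close to CAPZ_KO 4, the lowest of its group. CAPZ_KO exceeded WT on average, by 0.79 ± 0.432 on the log2 scale (SE). Peg3 lies on chromosome 7 from 6703892 to 6730431, on the minus strand.

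Mest, a paternally expressed gene for a putative hydrolase, was at 7.03, 5.13, 7.14 and 8.95 CPM in CAPZ_KO libraries 1 to 4. In WT libraries 1 to 4 it was at 7.83, 2.7, 3.05 and 1.36 CPM. WT 1 lay among the CAPZ_KO libraries and the other 3 WT libraries below them. The log2 fold change of 0.96 ± 0.441 (SE) became 1.57 without WT 1 and 0.53 without both female libraries. Mest lies on chromosome 6 from 30723547 to 30748465, on the plus strand. Its exons share 912 bases with Copg2 on the opposite strand, whose log2 difference was −0.12 ± 0.113 (SE) with an edgeR adjusted p of 0.406, and 0.50 with library sizes alone (adjusted p = 0.00596).

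Afp, alpha-fetoprotein, the main serum protein of the fetus, stood at 9.42, 5.43, 10.6 and 4.45 CPM in CAPZ_KO libraries 1 to 4. In WT libraries 1 to 4 it stood at 4.08, 3.55, 2.7 and 1.94 CPM. CAPZ_KO 1 and 3 formed a higher pair, and CAPZ_KO 4 lay just above WT 1. Between the groups the log2 difference was 1.29 ± 0.334 (SE). Afp lies on chromosome 5 from 90490737 to 90508907, on the plus strand.

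Gpc3, an X-linked heparan sulfate proteoglycan of the cell surface that restrains fetal growth, was at 3.92, 5.03, 3.45 and 5.68 CPM in CAPZ_KO libraries 1 to 4. In WT libraries 1 to 4 it was at 12, 3.09, 2.13 and 5.77 CPM. WT 1 was the highest and WT 3 the lowest of all libraries, so that the CAPZ_KO range lay within the WT range. The log2 fold change of −0.32 ± 0.467 (SE) became 0.29 without WT 1 and 0.30 with library sizes alone. Mesothelial markers summed to 13.2, 24.4, 23.9 and 53.1 CPM in CAPZ_KO 1 to 4 and to 80.9, 28.3, 25.5 and 65.8 CPM in WT 1 to 4. The 3 libraries with the highest sums, WT 1, WT 4 and CAPZ_KO 4, also had the highest Gpc3, but the order of the other 5 differed. The part of these cells in the level of Gpc3 was not tested. Gpc3 lies on the X chromosome from 52272426 to 52613950, on the minus strand.

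Per kb of exon, the order of the genes changed between the groups. In CAPZ_KO livers the levels were 7.55 ± 1.5 CPM per kb for Igf2r, 4.77 ± 2.18 for H19 and 2.22 ± 0.887 for Afp (SD, n = 4). Mest, Gpc3, Cdkn1c and Grb10 followed at 1.79, 1.68, 1.49 and 1.18 CPM per kb, then Igf2, Plagl1 and Peg3 at 0.37, 0.199 and 0.113. In WT livers Igf2r at 3.87 CPM per kb was followed by Gpc3, Cdkn1c, Mest, Afp and Grb10 at 2.14, 1.65, 0.947, 0.911 and 0.644. Plagl1, Peg3, Igf2 and H19 came last in WT at 0.113, 0.0643, 0.0552 and 0.0109. Neighbours in these orders had overlapping ranges, except Grb10 and Igf2 and also Plagl1 and Peg3 in CAPZ_KO, and Grb10 and Plagl1 in WT livers. H19 thus stood second in CAPZ_KO and last in WT livers.

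Other imprinted genes did not move as a block. Of 28 further genes expressed from the paternal allele in some mouse tissue, 11 had enough counts to be tested, of which 4 rose, 2 fell and 5 did not pass (edgeR adjusted p under 0.05). Of 30 further maternally expressed genes, 23 were tested, of which 6 rose, 2 fell and 15 did not pass. Over all tested genes 22.4% rose and 19% fell. Of the genes that rose, Airn, Peg10 and Phlda2 passed the filter on low counts through their CAPZ_KO libraries alone. With so few WT reads, they could be tested only if higher in CAPZ_KO. The median log2 fold change was 0.16 for the paternal and 0.10 for the maternal genes, beside −0.003 for all tested genes. Scaled by library sizes alone, 7 paternal genes rose and 1 fell, and 14 maternal genes rose, a scaling under which the median over tested genes was 0.622. Relative to that median the 10 described genes had 8.70 for H19, 2.76 for Igf2, 1.32 for Afp and −0.32 to 0.98 for the others. Without CAPZ_KO 1 or WT 2, 4 maternal genes fell.

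Among the paternally expressed genes, Peg10, a gene of retrotransposon origin, had 2.52, 1.05, 0.907 and 0.665 CPM in CAPZ_KO libraries 1 to 4 and 0.536, 0.0658, 0 and 0.389 CPM in WT libraries 1 to 4. It rose by 2.47 ± 0.747 on the log2 scale (SE, edgeR adjusted p = 0.0232), with adjusted p of 0.0686 without CAPZ_KO 1 and 0.0652 without WT 2. Its neighbour Sgce, epsilon-sarcoglycan, rose by 1.11 on the log2 scale, and Impact, an inhibitor of the stress kinase GCN2, by 0.69 (edgeR adjusted p = 0.0138 and 0.00378). Slc38a4, an amino acid transporter of hepatocytes, fell to 492 ± 119.8 CPM in CAPZ_KO, against 1556 ± 373 CPM in WT livers (SD, n = 4 each, edgeR adjusted p = 0.000416). Zrsr1, a splicing factor gene within Commd1, had a log2 fold change of −0.87 (edgeR adjusted p = 0.00146), with an adjusted p of 0.196 with library sizes alone.

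Among the maternally expressed genes, Phlda2, which restrains placental growth, had 87, 60, 46 and 39 reads in CAPZ_KO 1 to 4 and 2, 5, 3 and 0 reads in WT 1 to 4. It rose by 3.92 ± 0.526 on the log2 scale (SE, edgeR adjusted p = 0.000332), or by 3.31 with a prior count of 2. Cd81, a tetraspanin, rose to 459 ± 41.2 CPM in CAPZ_KO, against 270.2 ± 43.1 CPM in WT livers (SD, n = 4 each, edgeR adjusted p = 0.00271). Asb4, a subunit of ubiquitin ligases, and Atp10a, a phospholipid flippase, rose by 1.97 and 1.26 (log2, edgeR adjusted p = 0.00559 and 0.00809). Tfpi2, a protease inhibitor, fell by 1.20 and H13, a signal peptide peptidase, by 0.64 (log2, edgeR adjusted p = 0.0083 and 0.0187), and neither passed with library sizes alone, at adjusted p of 0.12 and 0.975.

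The pair Dlk1 and Meg3, the paternal and maternal genes of an imprinted domain on chromosome 12, are given side by side. Dlk1, a membrane protein of hepatoblasts, had 20, 12, 23 and 8 reads in CAPZ_KO 1 to 4 and 1, 0, 0 and 0 reads in WT 1 to 4, too few overall to be tested. Meg3, a long noncoding RNA, was at 4.06, 0.996, 1.87 and 1.33 CPM in CAPZ_KO 1 to 4 and at 3.11, 2.83, 7.74 and 6.03 CPM in WT 1 to 4. The difference was −1.25 ± 0.478 (log2, SE) with an edgeR adjusted p of 0.0593, and adjusted p of 0.0201 by DESeq2 and 0.0455 by limma-voom. By edgeR it was 0.00922 without CAPZ_KO 1 and 0.045 without WT 2.

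**Figure D2:**
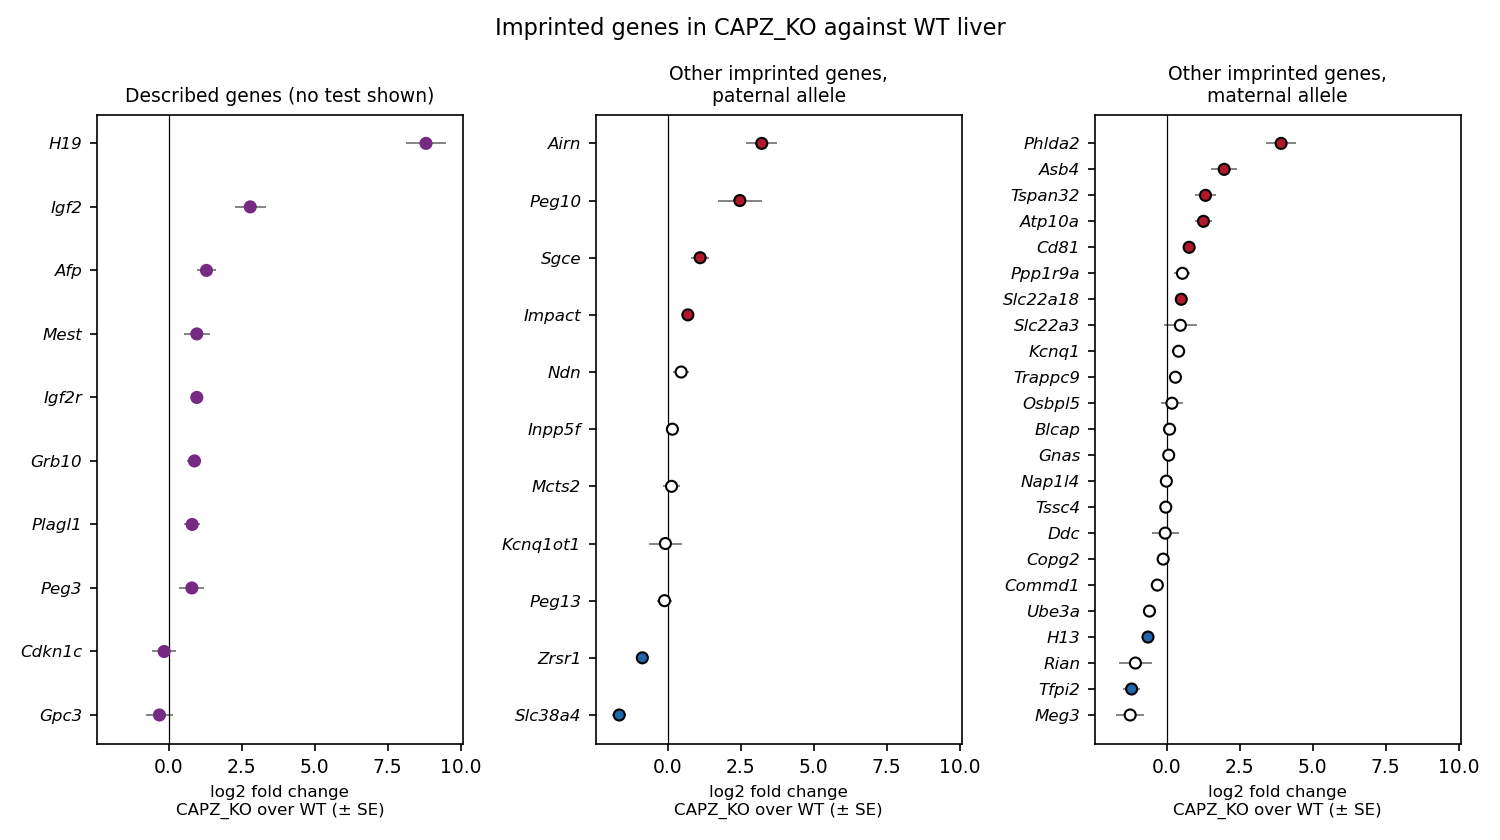
Log2 fold change of CAPZ_KO over WT with its SE for the 10 described genes (purple, no test) and for the tested members of both lists of other imprinted genes. Red points rose, blue points fell and white points did not pass an edgeR adjusted p of 0.05. Phlda2 at 3.92 and Airn at 3.22 are the highest of the 2 lists, and the value of H19 depends on the prior count.

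The genes around H19, Igf2 and Cdkn1c on distal chromosome 7 did not all change. Within 250 kb, 2 of 3 tested genes rose near H19, 1 of 2 near Igf2 and 4 of 9 near Cdkn1c, and 0 fell. Over all tested genes 22.4% rose and 19% fell. Lsp1 and Mrpl23 are counted near both H19 and Igf2. On the side away from Igf2, Mrpl23, a mitochondrial ribosomal protein gene, had −0.07 ± 0.233 (log2, SE, edgeR adjusted p = 0.82), and 0.56 with library sizes alone. Farther off, Lsp1, an actin-binding protein of leukocytes, rose by 1.21 (log2, edgeR adjusted p = 0.00302). Next to Cdkn1c, which did not separate the groups, Slc22a18, a transporter gene, rose by 0.50 (log2, edgeR adjusted p = 0.0128). Its adjusted p was 0.0605 without CAPZ_KO 2. Farther from Cdkn1c, Phlda2, Tnfrsf26 and Tnfrsf23 rose by 3.92, 1.28 and 1.94 (log2, edgeR adjusted p = 0.000332, 0.027 and 0.00339). Kcnq1, a potassium channel gene, and Kcnq1ot1, the RNA that silences genes of this domain on the paternal chromosome, had 0.41 and −0.08 (log2, edgeR adjusted p = 0.177 and 0.917). With library sizes alone Kcnq1 was called higher, at 1.03 (adjusted p = 0.00384). For Kcnq1ot1 the value was 0.63 without WT 2 and 0.54 with library sizes alone.

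**Figure D3:**
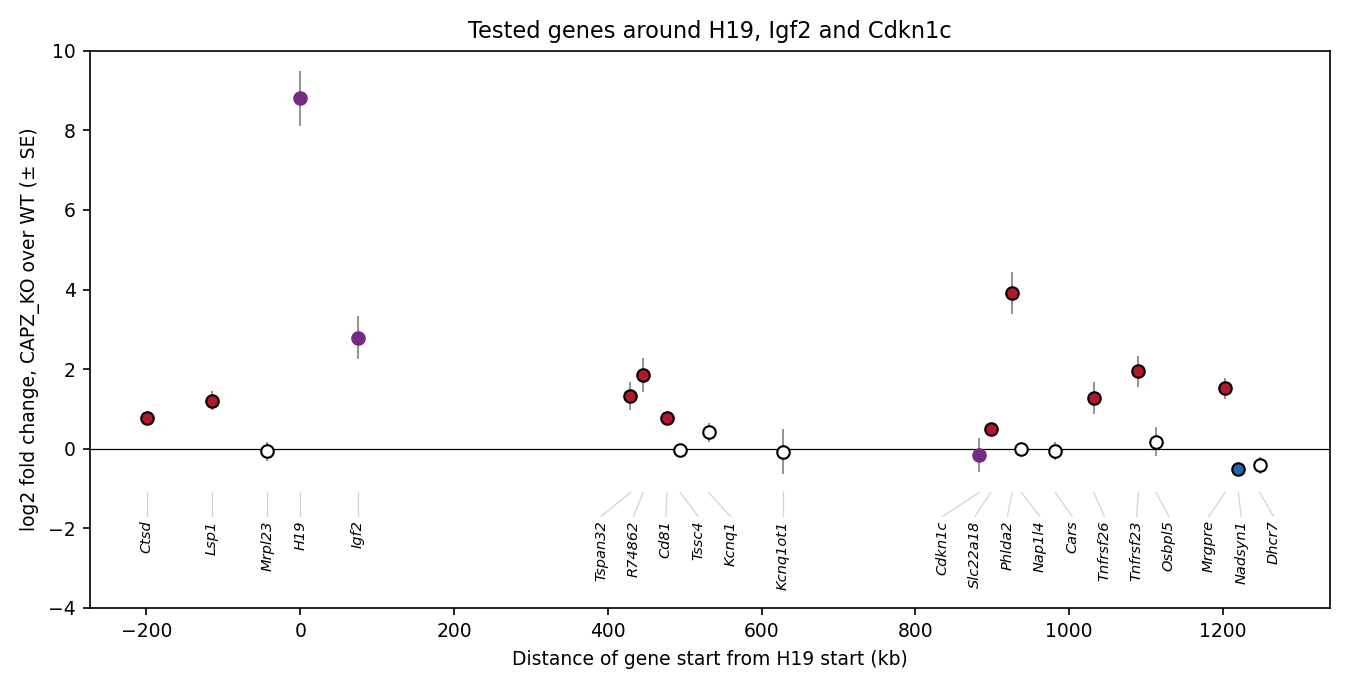
Log2 fold change of CAPZ_KO over WT with its SE for tested genes around H19, against the distance of each gene's start from that of H19 in kb. Purple marks H19, Igf2 and Cdkn1c, red genes rose, blue genes fell and white genes did not pass. H19 at 8.81, Phlda2 at 3.92 and Igf2 at 2.79 stand above the rest, with genes that did not pass beside them, such as Mrpl23 at −0.07 and Nap1l4 at −0.01.

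Around all 10 genes, 93 other genes of the table lay within 250 kb, of which 40 were tested, 12 rose and 8 fell. These are 30% and 20% of the tested neighbours, beside the 22.4% and 19% of all tested genes given above. Scaled by library sizes alone, 22 neighbours rose and 4 fell. Near Igf2r, Mrpl18, a mitochondrial ribosomal protein gene, fell by 0.74 (log2, edgeR adjusted p = 0.0019), with an adjusted p of 0.474 with library sizes alone. Near Grb10, Fignl1, which acts in DNA repair, rose by 3.31 and Ddc, dopa decarboxylase, had −0.05 (log2, edgeR adjusted p = 0.000203 and 0.946). Ddc had 0.66 without WT 1 and 0.62 with library sizes alone.

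Afp lies in a row of albumin family genes on chromosome 5, and Alb and Afm on its sides fell. Alb, albumin, stood at 26297, 43080, 32476 and 36944 CPM in CAPZ_KO 1 to 4 and at 132445, 175283, 122841 and 156423 CPM in WT 1 to 4. Afm, afamin, 10 kb on the other side of Afp, stood at 71 ± 5.23 CPM in CAPZ_KO and 459 ± 44.8 CPM in WT livers (SD, n = 4 each). The log2 differences of Alb and Afm were −2.08 ± 0.214 and −2.69 ± 0.136 (SE, edgeR adjusted p = 8.14e-05 and 2.64e-06). Gc, the vitamin D binding protein of the same family, had −0.40 with an edgeR adjusted p of 0.046. That of Gc ended above the threshold without CAPZ_KO 1, 3 or 4 or WT 1, 2 or 3 (0.0518 to 0.12), and its log2 value was 0.22 with library sizes alone. Per exon length, the ratio of Afp to Alb was 8.37e-05 to 0.000249 in CAPZ_KO and 8.65e-06 to 2.14e-05 in WT libraries. Afp was above and Alb below all WT libraries in every CAPZ_KO library, so these ratios could not overlap.

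**Figure D4:**
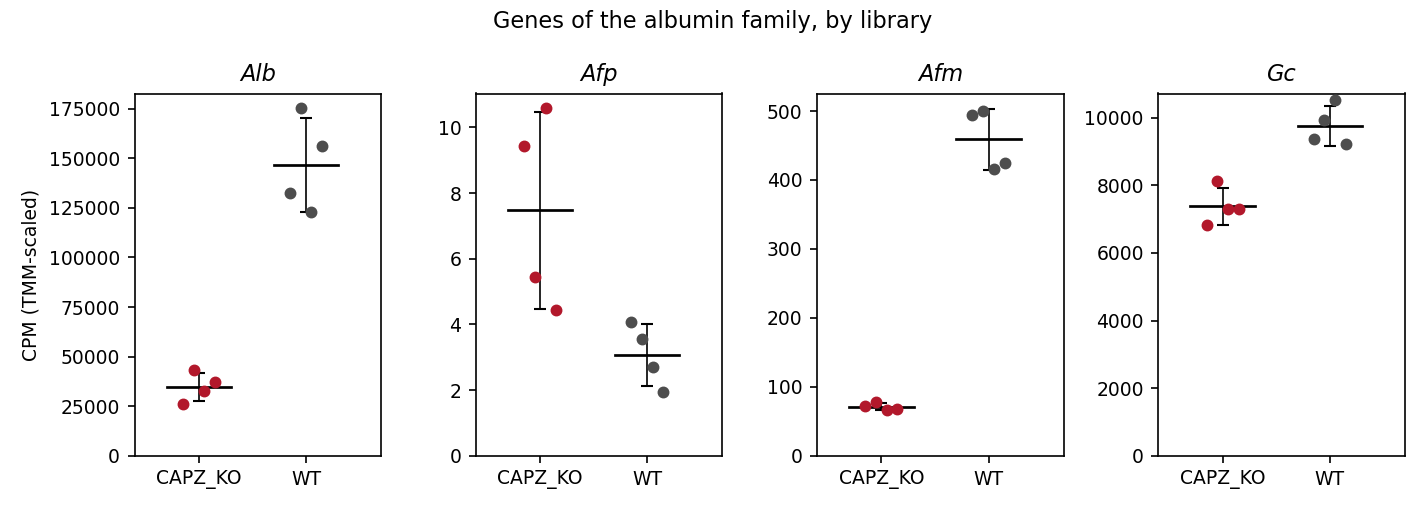
Levels of the albumin family genes in CPM after TMM scaling, with a point for each library, CAPZ_KO left and WT right, and the mean and SD of 4 libraries. Alb and Afm are lower in every CAPZ_KO library, while Afp, at 4.45 to 10.6 CPM in CAPZ_KO and 1.94 to 4.08 CPM in WT libraries, is higher.

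The promoters of Afp and Alb are shown because these adjacent genes differed in direction. RefSeq windows (GRCm38.p6, plus strand, 250 bases before to 50 after the annotated start) lie at chr5:90490464-90490763 for Afp and chr5:90460620-90460919 for Alb. Capitals mark matches, on either strand, of the TATA box TATAAA.
Afp: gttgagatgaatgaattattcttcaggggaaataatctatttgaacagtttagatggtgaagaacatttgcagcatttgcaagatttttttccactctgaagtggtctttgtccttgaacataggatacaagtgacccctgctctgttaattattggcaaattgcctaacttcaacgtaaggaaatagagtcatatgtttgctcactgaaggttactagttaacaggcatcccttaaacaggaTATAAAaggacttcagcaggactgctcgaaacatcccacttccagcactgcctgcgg
Alb: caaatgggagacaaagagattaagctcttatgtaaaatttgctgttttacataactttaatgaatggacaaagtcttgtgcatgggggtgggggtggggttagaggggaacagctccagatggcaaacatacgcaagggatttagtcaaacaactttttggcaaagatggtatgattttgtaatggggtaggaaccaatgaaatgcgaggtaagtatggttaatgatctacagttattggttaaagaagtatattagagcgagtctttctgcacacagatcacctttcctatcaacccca
As an exact match, TATAAA occurs in the Afp window alone of these 2 and in 13.6% of all 32851 windows of the table. Variant forms of the box were not searched, so the lack of a match does not show that Alb has none. The Afp match lies at −7 to −2 from the RefSeq start. GENCODE starts Afp farther downstream, at 90490737, so the match lies farther upstream of that start. Both windows hold 3 CpG, beside a median of 7 over all windows. Windows were found for 8 of the 10 genes, and these 14 windows hold 2 to 45 CpG, with 2 in an Igf2 window, 8 in a Mest, 9 in a Grb10 and 34 in the Igf2r window.

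Among 21 regulators of Afp, H19 or the hepatocyte program, all tested, 11 fell, 1 rose and 9 did not pass, beside 19% lower and 22.4% higher among all tested genes. Their median log2 fold change was −0.55. Scaled by library sizes alone, 2 fell and 6 rose. Zhx2 and Zbtb20, repressors of Afp after birth, were among those that did not pass. Zhx2, which represses Afp, H19 and Gpc3 in mouse liver, stood at 20.9 ± 2.36 CPM in CAPZ_KO and 21.6 ± 4.08 CPM in WT livers (SD, n = 4 each, edgeR adjusted p = 0.832). Zbtb20, which represses Afp, stood at 3.36 ± 0.41 CPM in CAPZ_KO and 3.44 ± 0.414 CPM in WT livers (SD, n = 4 each, edgeR adjusted p = 0.907). Scaled by library sizes alone, both were called higher, at log2 0.58 and 0.59 (edgeR adjusted p = 0.0124 and 0.0308), under the median of 0.622 over all tested genes. Cebpa, Cebpb and Onecut2, factors of hepatocyte differentiation, fell by 1.22, 1.14 and 1.12 on the log2 scale (edgeR adjusted p = 0.000261, 0.00264 and 0.00267). Without TMM factors Cebpb and Onecut2 had adjusted p of 0.0568 and 0.0836. Trp53, the p53 gene, rose by 0.70 (log2, edgeR adjusted p = 0.0161), with 0.0504 without CAPZ_KO 1 and 0.0661 without CAPZ_KO 3. In fits without CAPZ_KO 4 or WT 1, 2 or 4, the regulators that rose numbered 2.

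Of 18 genes that keep imprints and DNA methylation, 15 were tested, 5 rose, 1 fell and 9 did not pass, beside 22.4% higher and 19% lower among all tested genes. Their median log2 fold change was 0.18. With library sizes alone 10 rose, and 2 fell in the fit without WT 1. Uhrf1 and Hells, which act with the maintenance methyltransferase at replication, rose to 8.56 ± 5.87 and 5.14 ± 2.57 CPM in CAPZ_KO, against 1.04 ± 0.392 and 0.895 ± 0.511 CPM in WT livers (SD, n = 4 each, edgeR adjusted p = 0.00158 and 0.00184). Dnmt1, that methyltransferase, rose by 0.74 on the log2 scale (edgeR adjusted p = 0.00613). Zfp57, which protects imprints, rose to 1.59 ± 0.586 CPM in CAPZ_KO, against 0.514 ± 0.243 CPM in WT livers (SD, n = 4 each, edgeR adjusted p = 0.00779). Zfp445, which shares that role, had −0.57 (log2, edgeR adjusted p = 0.0381). Its adjusted p was 0.0758 to 0.104 without CAPZ_KO 2, 3 or 4 or WT 2 or 3, and the log2 value was 0.07 with library sizes alone. Ctcf, the insulator protein bound between Igf2 and H19, was at 32.4 ± 3.93 CPM in CAPZ_KO and 36.5 ± 2.95 CPM in WT livers (SD, n = 4 each, edgeR adjusted p = 0.299), and its log2 value of −0.17 was 0.46 with library sizes alone (adjusted p = 0.0201). Methylation was not measured here.

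Of 22 listed genes of the IGF pathway, 16 were tested, of which 1 rose, 6 fell, among them the adult ligand Igf1, and 9 did not pass. Their median log2 fold change was −0.74, and 22.4% of all tested genes rose and 19% fell. With library sizes alone 3 fell and 2 rose, and 2 rose without CAPZ_KO 4 or WT 4. Igf1, the postnatal ligand, stood at 297 ± 66.6 CPM in CAPZ_KO and 748 ± 67.7 CPM in WT livers (SD, n = 4 each), and fell by 1.33 on the log2 scale (edgeR adjusted p = 0.000378). Igfals, which holds IGF in its circulating complex, and Insr, the insulin receptor, had −2.17 and −1.01 (log2, edgeR adjusted p = 8.02e-05 and 0.000504). Igfbp4 had −0.93 and Igfbp7, an endothelial and stromal protein with weak IGF binding, rose by 0.82 (log2, edgeR adjusted p = 0.00313 and 0.000421). Without TMM factors Insr and Igfbp4 had adjusted p of 0.0503 and 0.13. Igf1r, the receptor that carries the signal of both ligands, was at 3.04 ± 0.579 CPM in CAPZ_KO and 2.88 ± 1.21 CPM in WT livers (SD, n = 4 each, edgeR adjusted p = 0.883). Per exon length, the ratio of Igf2 to Igf1 was 0.00659 to 0.0324 in CAPZ_KO and 0.000348 to 0.00109 in WT libraries, so Igf1 was above Igf2 in every library.

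**Figure D5:**
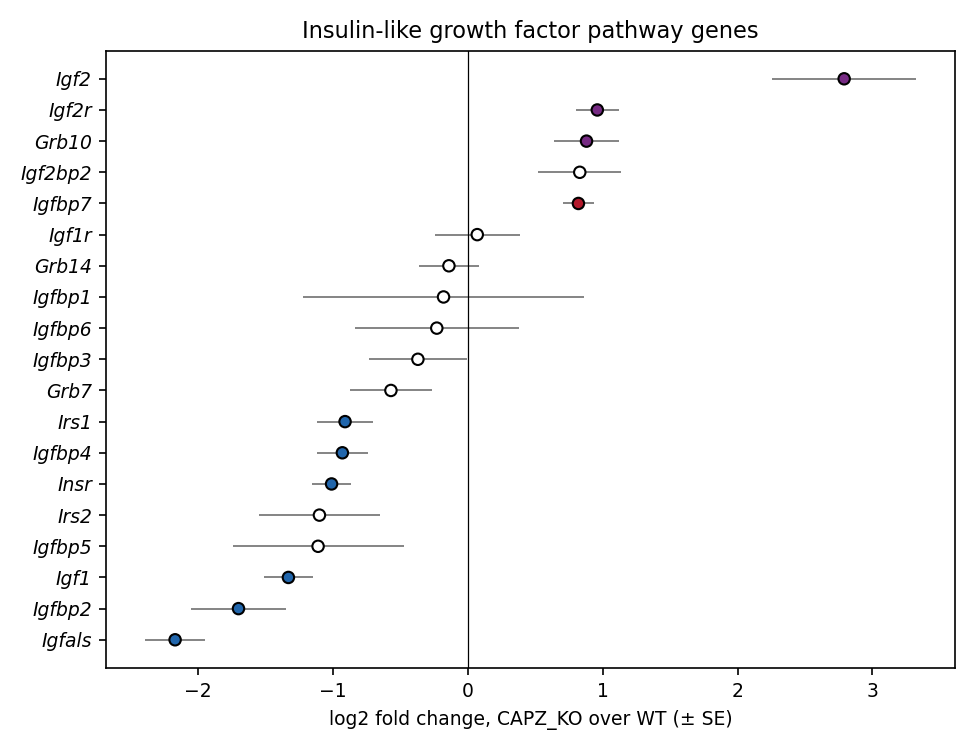
Log2 fold change of CAPZ_KO over WT with its SE for tested genes of the IGF pathway. Purple marks Igf2, Igf2r and Grb10 (no test), red genes rose, blue genes fell and white genes did not pass an edgeR adjusted p of 0.05. Igf2 at 2.79 and Igfals at −2.17 stand at the ends.

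Relatives of Cdkn1c, Gpc3 and Plagl1 are given beside them. Of 6 other cell cycle inhibitors, 5 were tested, 2 rose and 3 did not pass, with 22.4% of all tested genes higher, and 4 rose with library sizes alone. Cdkn1a, the inhibitor p21, rose to 146 ± 28 CPM in CAPZ_KO, against 5.75 ± 4.9 CPM in WT livers (SD, n = 4 each, edgeR adjusted p = 0.000412), and Cdkn2b rose by 2.42 (log2, edgeR adjusted p = 0.00397). Without WT 1 the log2 value of Cdkn1a was 5.33, against 4.71. Of 9 other glypicans and syndecans, 7 were tested, 3 rose, 2 fell and 2 did not pass, beside the same 22.4% higher and 19% lower. Sdc1 and Gpc6 rose by 0.77 and 1.05, and Sdc2 and Sdc4 had −1.21 and −1.37 (log2, edgeR adjusted p = 0.00304, 0.0128, 0.000138 and 0.000669). Sdc3 rose by 0.87 (log2, edgeR adjusted p = 0.0456), with 0.0519 to 0.11 without CAPZ_KO 2, 3 or 4 or WT 3 or 4. Gpc4, next to Gpc3 on the X chromosome, had −0.23 (log2, edgeR adjusted p = 0.35), and 0.41 with library sizes alone. Plagl2, the 1 relative of Plagl1 that was tested, had 0.33 (log2, edgeR adjusted p = 0.183) and passed with library sizes alone.

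Of 20 other fetal or oncofetal genes, 6 had enough counts to be tested, and 5 of these rose, beside 22.4% of all tested genes. In fits without CAPZ_KO 4 or a single WT library, where more genes passed the filter, 9 to 11 rose. The list was written with earlier results of these livers known and is no independent evidence of its direction. Ly6d, a surface protein, stood at 283 ± 120.4 CPM in CAPZ_KO and 1.71 ± 0.819 CPM in WT livers (SD, n = 4 each, edgeR adjusted p = 1.29e-05). Cldn6, a claudin of embryonic epithelia, stood at 8.29 ± 3.82 CPM in CAPZ_KO and 0.22 ± 0.183 CPM in WT livers, and Cd24a, a surface marker of progenitors, at 52.4 ± 25 CPM in CAPZ_KO and 2.89 ± 1.07 CPM in WT livers (SD, n = 4 each, edgeR adjusted p = 9.09e-05 and 0.00011). The log2 value of Cldn6 was 5.27, 5.93 without WT 3 and 4.68 with a prior count of 2. The fetal RNA-binding factor Lin28b had no read in any library.

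Some markers of other cells and most proliferation genes moved in the same livers. The counts below stand beside 22.4% higher and 19% lower among all tested genes, a share that the endothelial markers were near. Of 11 stellate cell and fibroblast markers 10 rose, with summed levels of 909 to 1411 CPM in CAPZ_KO and 375 to 452 CPM in WT libraries. Of 9 cholangiocyte markers 6 rose (388 to 1135 CPM in CAPZ_KO, 44.4 to 81.6 CPM in WT libraries), and of 7 monocyte-derived macrophage markers 6 (206 to 264 CPM in CAPZ_KO, 38.5 to 59.7 CPM in WT libraries). Kupffer cell and endothelial markers rose in 3 of 6 and 2 of 7, with summed levels of 1177 to 3507 and 317 to 486 CPM in CAPZ_KO and 561 to 1440 and 250.1 to 404 CPM in WT libraries, which overlapped. Of 6 tested mesothelial markers none passed by edgeR, DESeq2 or limma-voom, nor at an unadjusted p under 0.05, and the same held for 4 T and NK cell and 4 B cell markers. Summed levels were 13.2 to 53.1 CPM in CAPZ_KO and 25.5 to 80.9 CPM in WT libraries for mesothelial markers. T and NK cell markers summed to 7.86 to 13.7 CPM in CAPZ_KO and 2.84 to 15.4 CPM in WT, and B cell markers to 2.66 to 13.1 CPM in CAPZ_KO and 2.34 to 12.9 CPM in WT libraries. Both tested erythroid markers fell (9.01 to 14.8 CPM summed in CAPZ_KO, 27.7 to 145 CPM in WT libraries). Of 10 proliferation genes 9 rose, with Mcm2 at 2.03 and Cdk1 at 2.20 on the log2 scale (edgeR adjusted p = 0.00047 and 0.00169). Each listed marker of these cell types in the table had reads in at least 1 library. Their part in the levels of the 10 genes was not tested.

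Within the CAPZ_KO libraries, 1 and 3 had the higher Afp and also the higher cholangiocyte, proliferation and stellate sums. Kupffer cell, endothelial and macrophage sums did not share this. These orders over 4 libraries were not tested. CAPZ_KO 1 and 3, with the higher Afp, had summed cholangiocyte markers of 1135 and 808 CPM and proliferation genes of 192 and 191 CPM. CAPZ_KO 2 and 4 had cholangiocyte markers of 479 and 388 CPM and proliferation genes of 120.2 and 94.5 CPM. Kupffer cell markers summed to 1177, 2428, 2070 and 3507 CPM and endothelial markers to 317, 394, 363 and 486 CPM in CAPZ_KO 1 to 4, lower in 1 and 3. Macrophage markers summed to 264, 251, 234 and 206 CPM in CAPZ_KO 1 to 4. H19 and Igf2 did not follow the order of Afp, since CAPZ_KO 2 held the most of both. Stellate markers summed to 1411, 909, 1083 and 976 CPM in CAPZ_KO 1 to 4, higher in 1 and 3. The stellate sum was highest in CAPZ_KO 1, as were the cholangiocyte, proliferation and macrophage sums. Of the 10 genes, Igf2r, Grb10 and Peg3 were highest in that library too.

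Over the 8 libraries the genes most like H19 by Pearson's r of log2(CPM + 1) were Arhgap22, Ppfia4 and A330074K22Rik (r = 0.996, 0.995 and 0.995). For Igf2 they were Cacna1b, Rasal1 and Il21r (r = 0.981, 0.980 and 0.976), and for Afp they were Traf3, Calu and P3h1 (r = 0.996, 0.984 and 0.982). These are descriptions over libraries that share the group difference, and 1213, 187 and 305 genes passed an r of 0.9 with H19, Igf2 and Afp.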

How the data were processed

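Liver poly(A) RNA was measured in 4 CAPZ_KO and 4 WT libraries. The authors deposited raw read counts per gene symbol. The build mm10 and the tools edgeR, R 3.3.1, featureCounts, STAR 2.5.3a and bcl2fastq are named, without their roles, per the submitters' processing notes. No annotation or strand setting is named there.

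Genes were kept by filterByExpr of edgeR 4.0.16 (minimum count 10, minimum total 15), leaving 12985. Genes with few reads in WT, such as Airn, Peg10, Phlda2, Cdkn2b, Cldn6 and Fignl1, passed through their CAPZ_KO libraries alone. Their calls could only be higher. After TMM scaling, edgeR's quasi-likelihood test (robust dispersions, R 4.3.3) compared the groups over the 8 libraries without covariates, and p-values were adjusted over all tested genes (Benjamini-Hochberg, 0.05). Every adjusted p is from edgeR unless another tool is named. The SE of a log2 fold change is its absolute value divided by the square root of that test's F statistic, also for the 10 described genes. Positions and exon lengths are from GENCODE vM21 (GRCm38, the assembly mm10 names), where 95.5% of symbols were found. Gene lists are described by counts and medians.

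The 10 genes and all lists were chosen with earlier results of these data known. Named genes outside the 10 were, per list and direction, the up to 4 called genes with the smallest p, a few fixed partners and the nearest tested neighbours. Plagl2, the 1 tested gene of its list, was added after its value was seen. Some genes that this rule names are not reported here. Medians of log2 fold change carry no test. The test was checked on simulated counts. Library pairs within groups differed by a chi-square per degree of freedom of at least 25.2, so none were duplicates. Intervals cover counting error only. Alternatives were other scalings, filters, tests, dispersions and prior counts, the replicate number as a block, sex, other windows and leaving out each library.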

Additional observations from a re-analysis of the deposited data

Results flagged for a closer look

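Among 82 genes named, 164 groups of 4 libraries were checked for a library far from the others (Dixon's test, 95% level), which chance marks in about 5% of groups, or 8.2 of them. It marked 8. Of the 10 growth genes, Igf2r in CAPZ_KO 1 stood apart, at 91.1 CPM against 62.6 to 64.5 CPM in the other CAPZ_KO libraries. The same library stood apart for Asb4 at 2.88 CPM and for Gpc6 at 9.1 CPM. CAPZ_KO 3 stood apart for Zrsr1 at 8.04 CPM and Igf1r at 2.18 CPM, and CAPZ_KO 2 for Mrpl18 at 30.4 CPM. WT 1 stood apart for Mrpl23 at 9.01 CPM and WT 2 for Kcnq1ot1 at 1.51 CPM.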

How the results depend on the processing

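Of the alternatives, scaling by library sizes alone moved most values, with the median of all tested genes at 0.622. Under it 7665 genes rose and 700 fell. Other paternal genes then had 7 higher and 1 lower calls, maternal genes 14 and 0, IGF pathway genes 2 and 3, regulators 6 and 2, imprint maintenance genes 10 and 0 and neighbours 22 and 4. There were 4 higher calls among cell cycle inhibitors and 1 in the Plag family. H19 stood at 9.32, Igf2 3.38, Igf2r 1.60, Peg3 1.42, Mest 1.60, Plagl1 1.42, Grb10 1.51 and Afp 1.94. Signs turned for Cdkn1c 0.44, Gpc3 0.30, Gc 0.22, Zfp445 0.07, Zhx2 0.58, Zbtb20 0.59, Ctcf 0.46, Mrpl23 0.56, Copg2 0.50, Sf3b5 0.58, Kcnq1ot1 0.54, Cobl 0.44, Ddc 0.62, Gm9958 0.23 and Gpc4 0.41. With limma-voom H19 had 7.78, Cdkn1c 0.06, Gpc3 0.03, Mrpl23 0.01 and Ddc 0.23. With a prior count of 2 H19 had 6.40. Regulators had 2 higher calls with DESeq2, limma-voom, a mean CPM of at least 1, no filter, the replicate block, a sex term and without both female libraries. IGF genes had 2 without robust dispersion, without a filter and without both female libraries, the last an alternative chosen after seeing the data. Fetal and oncofetal genes had 10 higher calls with no filter, 9 without the female libraries and 1 lower with a mean CPM of at least 1, Cyp3a16, which this minimum lets into the test with 1356 reads in WT 4 and 1 to 8 in each other library (named after its values were seen). That minimum left 2 paternal genes higher, and DESeq2 called 4 maternal genes lower. Without the female libraries Cdkn1c had 0.46 and Zhx2 0.02. With a sex term Cdkn1c had 0.04 and Ddc 0.06. Neighbours within 100 kb had 6 higher and 4 lower calls, and within 500 kb 21 higher. Except where stated, the cause was not tested.

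Libraries of the same number correlated at 0.25, 0.03, 0.08 and 0.3. In 3 of 4 cases a library correlated best with its own number. That is a hint from the data and not the design, so the samples share a number and no pairing. Number 4, with the value of 0.3, was the female library in both groups, and sex was not removed before correlating. With the replicate block 2974 genes were higher and 2411 lower, Cdkn1c had 0.04 and Ddc 0.21. Among named genes that fit called Meg3 lower (−1.34, edgeR adjusted p = 0.0386) and no longer called Gc (adjusted p = 0.0923).

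Leaving out each library gave 8.44 to 10.69 for H19, 2.27 to 3.07 for Igf2, 0.52 to 1.17 for Peg3, 0.67 to 1.57 for Mest, 0.67 to 0.89 for Plagl1, −0.40 to 0.49 for Cdkn1c and −0.60 to 0.29 for Gpc3. Other values that turned sign were Igf1r (−0.14 to 0.34), Zhx2 (−0.16 to 0.07), Zbtb20 (−0.11 to 0.04), Mrpl23 (−0.17 to 0.18), Slc22a3 (−0.21 to 0.97), Cep41 (−0.05 to 0.18), Sf3b5 (−0.15 to 0.07), Kcnq1ot1 (−0.48 to 0.63) and Ddc (−0.31 to 0.66). Calls ranged from 2 to 4 for lower maternal genes, 1 to 2 for higher IGF genes, 0 to 2 for higher regulators, 0 to 2 for lower imprint maintenance genes and 5 to 11 for higher fetal and oncofetal genes. Depth limits Igf2, H19 in WT, Plagl1, Peg3 and Dlk1, which rest on few reads.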
